A study of Homo sapiens with 12 samples.

Results

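The expression of 7 single genes, IL4I1, NPC1L1, CATSPERD, TEKT2, PCBP4, SERTAD1 and NKAIN2, was followed in HEK293 cells, an established human embryonic kidney line, with and without overexpression of RBMX. They are 7 of 25268 gene symbols listed, and each symbol has 1 entry. The 7 were chosen by measured values of these same libraries, namely their difference between RBMX and control cells. That difference is therefore described here and not tested, and only the comparison of polysomal with total RNA, which did not choose them, is given with a test. Its standard error uses the spread within the same total libraries, so its p-values may not be wholly free of the choice.

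RBMX, also called hnRNP G, is an X-linked nuclear RNA-binding protein that regulates splicing and binds nascent transcripts. An RNA-binding protein can alter the amount of a messenger RNA or the share of it that sits on polysomes, the strings of ribosomes that translate it. Comparing total with polysomal RNA of the same cells bears on both, relative to the other messengers of each library. The 7 genes do not form a pathway, and several are best known from tissues other than the kidney.

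Cells were transfected with 2 µg of a pCMV6 plasmid, either carrying His- and HA-tagged RBMX or empty, and RNA was taken 48 h later. The submitters call the cells with the empty plasmid wild type, and they are called control here. Each vector was used in 3 cultures. From each culture, total RNA, pooled from a part of every fraction of a sucrose gradient, and polysomal RNA, from its polysome-bearing fractions, were both sequenced. This gave 4 groups of 3 libraries and 12 libraries in all, each made from 500 ng of RNA with a TruSeq RNA kit. Expression is given as FPKM, fragments scaled to transcript length and to the mapped fragments of the library, a level per length that can be compared between genes. Each library is scaled on its own. A polysomal to total ratio is therefore relative to the other messengers and is not the absolute share of a messenger on polysomes. The transfection was transient, so a library mixes cells that took up the plasmid with cells that did not, and a larger share of responding cells cannot be told apart from more RNA per cell. The cultures of one fraction were separate, but the total and polysomal libraries of a culture share their cells.

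RBMX itself was 147, 145 and 108 FPKM in control total RNA and 1731, 2073 and 1460 FPKM in RBMX total RNA. In polysomal RNA it was 146, 148 and 87.4 FPKM in control and 1167, 1328 and 1072 FPKM in RBMX cells. RBMX was thus higher in every library labelled RBMX than in any control library, with means 13.2-fold higher in total and 9.36-fold higher in polysomal RNA. Spearman correlations between replicate libraries ran from 0.976 to 0.998, and the lowest of them involved control culture 3. The 6 intermediate filament and kidney marker genes of HEK293 cells (KRT8, KRT18, VIM, NEFL, NEFM, PAX2) were detected throughout, with summed levels of 429 to 890 FPKM in control total and 834 to 874 FPKM in RBMX total RNA. Depth in fragments is not known from FPKM values, so no counting error can be given.

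The genes lie on 5 chromosomes. In GENCODE release 29 (GRCh38) IL4I1 is at chr19:49889654-49929539 on the minus strand, SERTAD1 at chr19:40421592-40426025 on the minus strand and CATSPERD at chr19:5720677-5778734 on the plus strand. NPC1L1 is at chr7:44512535-44541315 on the minus strand, TEKT2 at chr1:36084075-36088275 on the plus strand, PCBP4 at chr3:51957454-51974016 on the minus strand and NKAIN2 at chr6:123804141-124825657 on the plus strand. Gene structure varied widely among the 7. The principal transcript of SERTAD1 has 2 exons and that of CATSPERD has 22, while NKAIN2 spans 1021517 bases for a principal transcript of 3115 bases.

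Sequences just before the RefSeq gene start (GRCh38.p14) were available for 6 of the 7 genes, TEKT2 being the one without. They are shown because 6 of the 7 genes were higher in RBMX cells, so that a reader can see what their start regions hold. Each is written 5′ to 3′ on the strand of the gene. Capitals mark matches, on either strand, to 1 of 6 motifs: the GC box GGGCGG, the CCAAT box CCAAT, the TATA box TATAAA, the CRE half-site TGACG, the AP-1 motif TGACTCA and the NRF1 core GCATGCGC. Bases in annotated exons were left out, so the stretches are of unequal length. For IL4I1, where the window lies in exons of other genes, only 30 bases around the match are given. The stretches are at chr19:49929544-49929573 for IL4I1, chr19:5720573-5720636 for CATSPERD, chr19:40426026-40426114 for SERTAD1, chr3:51967467-51967566 for PCBP4, chr7:44541331-44541430 for NPC1L1 and chr6:123804285-123804384 for NKAIN2.
IL4I1: cgggcccagtGCGCATGCGCagccgcgcgc
CATSPERD: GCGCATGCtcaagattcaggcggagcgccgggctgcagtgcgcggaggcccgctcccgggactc
SERTAD1: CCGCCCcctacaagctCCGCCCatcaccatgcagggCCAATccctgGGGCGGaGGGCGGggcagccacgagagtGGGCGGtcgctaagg
PCBP4: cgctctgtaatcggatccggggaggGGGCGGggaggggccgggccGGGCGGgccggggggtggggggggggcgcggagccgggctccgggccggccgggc
NPC1L1: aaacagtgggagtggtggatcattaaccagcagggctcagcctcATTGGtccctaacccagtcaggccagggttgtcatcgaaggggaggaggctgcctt
NKAIN2: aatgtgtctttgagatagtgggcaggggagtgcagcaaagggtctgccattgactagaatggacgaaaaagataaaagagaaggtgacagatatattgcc

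No motif was found in all 6 start regions when the 250 bases before each start were searched. The NRF1 core was found 2 times before IL4I1, as overlapping matches on both strands of 1 palindrome, 2 times before CATSPERD and 1 time before SERTAD1. Of all 35116 RefSeq promoters, 2.63% held it. GC boxes were found 7 times before the first start of PCBP4 and 5 times before SERTAD1, and 42.6% of all promoters held one. The NPC1L1 region held 1 CCAAT box and 1 AP-1 motif, which 32.0% and 4.20% of all promoters held. SERTAD1 also had 1 CCAAT box. The NKAIN2 region held none of the 6 motifs, TATAAA was found before none of the 6 genes although 10.7% of promoters held it, and the CRE half-site was found 1 time, before the second start of PCBP4 (21.2% of promoters). The region before IL4I1 is also that of NUP62, whose RefSeq promoter is the same sequence. The gene LONP1 lies 105 bases from CATSPERD on the opposite strand, so the 250 bases searched before CATSPERD run into LONP1. These matches describe the letters and say nothing of binding.

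IL4I1 encodes a secreted L-amino acid oxidase that breaks down phenylalanine and tryptophan and is best known from lymphoid and myeloid cells. In control cultures 1, 2 and 3 its level in total RNA was 0.367, 0.389 and 0.215 FPKM, and in the RBMX cultures it was 1.68, 2.04 and 1.47 FPKM. In polysomal RNA it was 0.409, 0.299 and 0.340 FPKM in control and 1.42, 1.69 and 1.15 FPKM in RBMX cells. Every RBMX library was above every control library of its fraction. The means were 5.35-fold higher in total and 4.06-fold higher in polysomal RNA, and on the log2(FPKM + 1) scale the differences were 1.04 ± 0.095 and 0.84 ± 0.091 (limma standard error, n = 3 against 3). The added 1 makes these log2 differences smaller than the log2 of the ratios for genes at such low levels.

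NPC1L1 encodes the sterol transporter through which enterocytes take up cholesterol. It was 0.432, 0.426 and 0.482 FPKM in control total RNA and 2.20, 2.37 and 1.66 FPKM in RBMX total RNA. The polysomal values were 0.393, 0.338 and 0.604 FPKM in control and 2.17, 2.28 and 1.41 FPKM in RBMX cells. The groups did not overlap in either fraction, and RBMX culture 3 was the lowest of the RBMX libraries in both. The ratio of means was 4.65 in total and 4.39 in polysomal RNA, with log2 differences of 1.08 ± 0.096 and 1.02 ± 0.14. Leaving out single libraries kept the polysomal difference of NPC1L1 between 0.94 and 1.16.

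CATSPERD encodes an auxiliary subunit of CatSper, the calcium channel of the sperm tail. It was listed at 0.175, 0.119 and 0.189 FPKM in control total RNA and at 1.15, 1.36 and 1.07 FPKM in RBMX total RNA. In polysomal RNA it was 0.0455, 0.0795 and 0.103 FPKM in control and 0.758, 0.718 and 0.375 FPKM in RBMX cells. All RBMX values lay above all control values, but the polysomal ones were lower than the total ones in all 6 cultures. The ratio of the means was 7.41 in total and 8.11 in polysomal RNA, while the log2 differences were 0.92 ± 0.061 and 0.58 ± 0.10.

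TEKT2 encodes a tektin, a filament protein of the microtubules of cilia and flagella. Its total RNA level was 0.132, 0.140 and 0.137 FPKM in control and 1.01, 1.23 and 0.983 FPKM in RBMX cells. In polysomal RNA the values were 0.220, 0.101 and 0.193 FPKM and 0.979, 1.09 and 0.678 FPKM. TEKT2 had the tightest control values of the 4 low genes in total RNA, and again no RBMX library overlapped with a control library. The ratio of means was 7.89 in total RNA, the largest among the 7 genes in that fraction, and 5.34 in polysomal RNA, and the log2 differences were 0.87 ± 0.054 and 0.70 ± 0.093.

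PCBP4 encodes a KH-domain poly(C)-binding RNA-binding protein that is induced by p53. It was measured at 8.26, 7.52 and 7.83 FPKM in control total RNA and at 12.5, 12.2 and 12.7 FPKM in RBMX total RNA. The polysomal levels were 5.65, 5.85 and 7.55 FPKM in control and 9.85, 11.1 and 10.2 FPKM in RBMX cells. The groups were apart in both fractions, with control culture 3 nearest to the RBMX libraries in polysomal RNA. The means were 1.58-fold and 1.64-fold higher in total and polysomal RNA, or 0.60 ± 0.058 and 0.64 ± 0.12 on the log2 scale. PCBP4 was the only 1 of the 7 for which the log2 difference was larger in size in polysomal than in total RNA, and the difference between the fractions was not tested.

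SERTAD1 encodes a SERTA-domain protein that binds CDK4 and acts as a coregulator of E2F and DP. It was the most abundant of the 7 genes, at 28.9, 27.9 and 28.2 FPKM in control total RNA and 43.0, 42.3 and 39.9 FPKM in RBMX total RNA. Its polysomal level was 25.3, 27.5 and 29.9 FPKM in control and 39.3, 38.7 and 34.7 FPKM in RBMX cells. No library of one vector reached into the range of the other. The ratios of means were 1.47 and 1.36, and the log2 differences were 0.54 ± 0.051 and 0.43 ± 0.091. The lowest RBMX library was 1.38 times the highest control library in total RNA and 1.16 times in polysomal RNA.

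NKAIN2 encodes a membrane protein that interacts with the beta subunit of the Na,K-ATPase and is best known from the nervous system. It was the only 1 of the 7 genes with lower values in RBMX cells. Control total RNA had 2.14, 2.24 and 2.17 FPKM and RBMX total RNA 1.30, 1.21 and 1.22 FPKM. Control polysomal RNA had 2.36, 2.54 and 1.80 FPKM and RBMX polysomal RNA 1.35, 1.27 and 1.35 FPKM. All RBMX libraries were below all control libraries, and control culture 3 was the lowest control library in polysomal RNA. The control mean was 1.76 times the RBMX mean in total and 1.69 times in polysomal RNA, with log2 differences of -0.51 ± 0.043 and -0.47 ± 0.098.

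**Figure D1:**
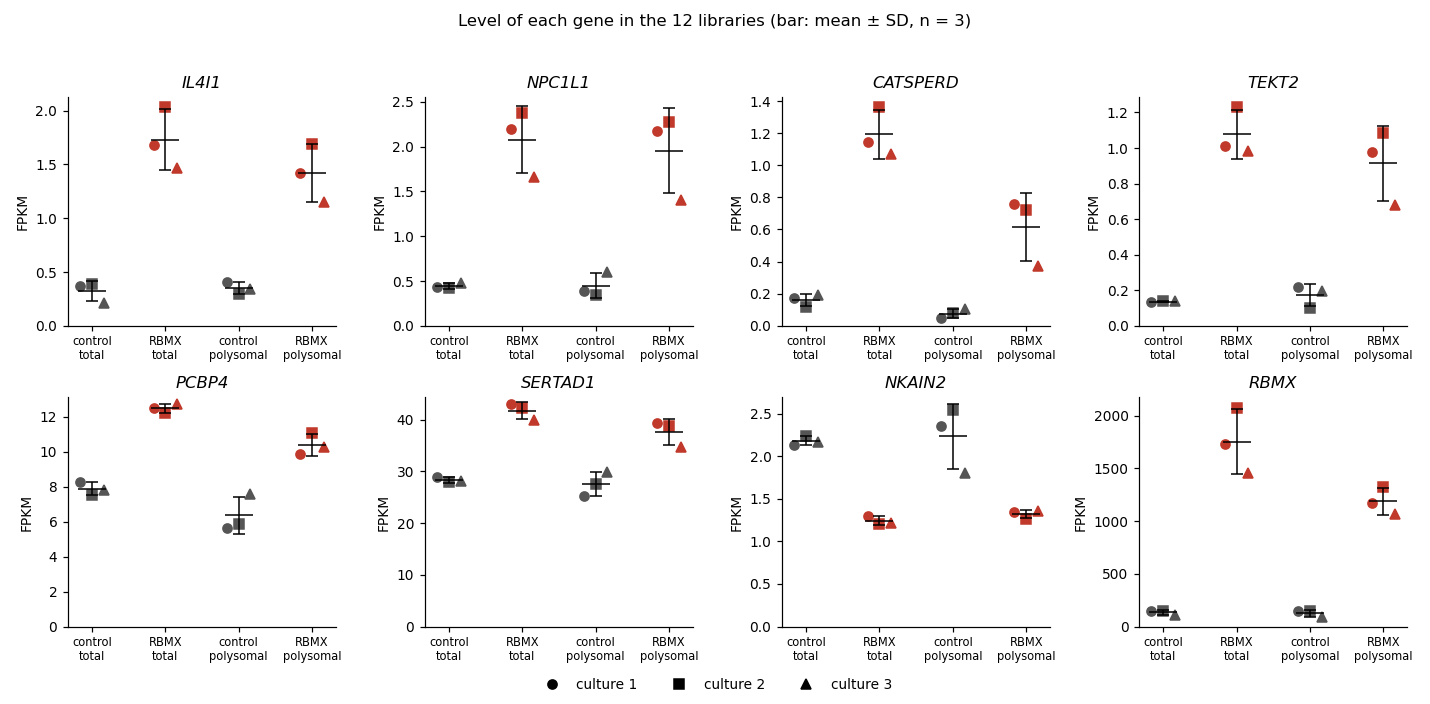
Level of the 7 genes and of RBMX in FPKM (vertical axes from 0) in the 12 libraries, by vector and fraction. Each point is a library, its shape gives the culture, and the bar is the mean ± SD of 3 libraries. In every panel but that of NKAIN2 the RBMX libraries lie above the control libraries of the same fraction, and in that of NKAIN2 they lie below.

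In all, the RBMX and control libraries did not overlap for 7 of 7 genes in both fractions, 6 with higher and NKAIN2 with lower values. Among the 14676 genes tested, 11.9% had higher and 15.4% lower RBMX values without overlap in total RNA, 10.0% and 12.5% had so in polysomal RNA, and 6.41% and 7.32% in both. With limma, 24 genes (0.164%) passed an adjusted p of 0.05 in total RNA, 16 higher and 8 lower in RBMX cells. They included all 7 of the genes described here, which follows from how these were chosen, and 12 of the 24 are small RNA genes. In polysomal RNA 7 genes (0.0477%) passed and none of the 7 described genes was among them. An unadjusted limma p under 0.05, which 11.7% of all genes had in that fraction, was found for all 7, and like the other counts of this contrast it follows from the choice and is no evidence. These polysomal libraries come from the same cultures and are no independent repeat. The differences were not the largest of the data. NPC1L1 ranked 254th from the top of all tested genes by its log2 difference in total RNA, SERTAD1 440th, and NKAIN2 198th from the bottom.

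IL4I1, NPC1L1, CATSPERD and TEKT2 had control means under 0.5 FPKM and passed the filter on low values, a mean of at least 0.5 FPKM over the 12 libraries, through their RBMX libraries. The other 3 genes were above it in every group. With 0.1 FPKM added in place of 1, the total RNA log2 differences of the 4 low genes were 2.13 for IL4I1, 1.98 for NPC1L1, 2.31 for CATSPERD and 2.31 for TEKT2.

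The level of RBMX differed among the RBMX cultures, with culture 2 highest and culture 3 lowest in both fractions. In total RNA, IL4I1, NPC1L1, CATSPERD and TEKT2 followed the same order of cultures, and in polysomal RNA IL4I1, NPC1L1 and TEKT2 did. SERTAD1 was lowest in culture 3 as well but highest in culture 1. PCBP4 and NKAIN2 were in other orders. With 3 cultures per vector these orders are a description. Without RBMX culture 3, 178 genes instead of 24 passed in total RNA and 126 instead of 7 in polysomal RNA, so that this culture bears strongly on the count over all genes.

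The log2 levels of the 7 genes were closely related over the 12 libraries, which share the contrast that chose them. After the group means were taken out, Pearson's r over the 12 libraries was 0.88 for NPC1L1 and CATSPERD, 0.84 for NPC1L1 and TEKT2 and 0.84 for IL4I1 and TEKT2. It was 0.81 for NPC1L1 and SERTAD1, 0.020 for IL4I1 and PCBP4 and -0.89 for PCBP4 and NKAIN2. The total and polysomal libraries of a culture share cells, so these 12 points are not independent. The 6 pairs among the 4 low genes, IL4I1, NPC1L1, CATSPERD and TEKT2, gave 0.63 to 0.88.

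Of all tested genes outside the small RNAs, the patterns most like those of the 7 were named by the 3 highest correlations over the 12 libraries. Group means were kept in, so these correlations include the difference between RBMX and control that chose the 7. They describe likeness and are no evidence of a link. For IL4I1 they were TEKT2 (r = 0.993), RASD2 (0.987), a small GTPase, and ICAM1 (0.986), an adhesion molecule. For TEKT2 they were IL4I1, NPC1L1 (0.988) and ICAM1 (0.986), and for NPC1L1 they included TEKT2 and ICAM1 (0.985). The 3 low genes thus shared each other and ICAM1, which was 0.262 FPKM in control and 1.10 FPKM in RBMX total RNA on average. CATSPERD was nearest to the pseudogene CYP2B7P (0.978), to AURKC (0.977), a meiotic Aurora kinase, and to BAIAP2L2 (0.974). PCBP4 was nearest to ZNF408 (0.978), CSRNP1 (0.970) and IER3 (0.966), an early response gene at 40.6 FPKM in control and 63.4 FPKM in RBMX total RNA. SERTAD1 was nearest to CNTD2 (0.976), RND1 (0.975) and NPC1L1 (0.973). The pattern of NKAIN2 was most like those of ELOVL2 (0.967), an elongase of polyunsaturated fatty acids, SMAD9 (0.967) and ADAMTS5 (0.957), and ELOVL2 was 22.2 FPKM in control and 15.7 FPKM in RBMX total RNA.

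Whether the 7 messengers differed between polysomal and total RNA was tested over all 12 libraries, as the mean of the differences in control and RBMX cells. Of the 14676 genes, 970 (6.61%) passed an adjusted p of 0.05, 219 higher and 751 lower in polysomal RNA, and those lower were 5.12% of the genes tested. CATSPERD and PCBP4 were among them, 2 of the 7 genes, and none of the 7 was called higher. With the culture as a block 2584 genes (17.6%) passed, and of the 7 again CATSPERD and PCBP4. The other 5 genes did not pass.

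CATSPERD fell in polysomal RNA by 0.28 ± 0.067 on the log2(FPKM + 1) scale (limma adjusted p = 0.0408, and 0.0245 with the culture as a block), and was lower in polysomal than total RNA in 6 of 6 cultures. The polysomal to total ratios of FPKM were 0.260, 0.669 and 0.547 in the control cultures and 0.661, 0.528 and 0.351 in the RBMX cultures. The ratios of the 2 vectors overlapped, and their means were 0.492 and 0.513, although the control ratios rest on levels under 0.2 FPKM. On the log2 scale the mean difference was -0.11 in control and -0.45 in RBMX cultures, so that most of it came from the RBMX cultures. CATSPERD also passed the filter through its RBMX libraries, and the RBMX total values helped to choose it. The call may therefore not be free of the choice. Without a filter the adjusted p was 0.0461. The call was lost in 9 of the 12 fits that left out a library (adjusted p from 0.0343 to 0.108).

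PCBP4 fell by 0.26 ± 0.065 (limma adjusted p = 0.0449, and 0.0432 with the culture as a block), and was lower in polysomal RNA in 6 of 6 cultures. Its ratios were 0.684, 0.778 and 0.965 in control and 0.790, 0.909 and 0.805 in RBMX cultures. They overlapped between the vectors, with control culture 3 closest to an equal level in both fractions. The call was kept without the polysomal library of control culture 3 (adjusted p = 0.00238) and was lost in the other 11 fits that left out a library, with an adjusted p of up to 0.119.

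SERTAD1 was lower in polysomal RNA in 5 of 6 cultures, with a log2 difference of -0.095 ± 0.051 (limma adjusted p = 0.294). The differences were smaller still for IL4I1 (-0.073 ± 0.072, adjusted p = 0.593), TEKT2 (-0.040 ± 0.061, adjusted p = 0.757), NPC1L1 (-0.036 ± 0.092, adjusted p = 0.866) and NKAIN2 (0.033 ± 0.056, adjusted p = 0.785). These 5 genes were thus found at polysomal levels that could not be separated from their total levels given the spread of the libraries. NKAIN2 was higher in polysomal RNA in 5 of 6 cultures and lower in control culture 3. In the RBMX cultures all 3 differences were negative for IL4I1 (-0.15 to -0.20), TEKT2 (-0.025 to -0.24), NPC1L1 (-0.013 to -0.14) and SERTAD1 (-0.12 to -0.20). In the control cultures those of the same 4 genes lay on both sides of 0, and whether the vectors differed was not tested. The 4 genes were chosen as higher in RBMX cells, and these differences subtract the RBMX total values that helped to choose them. Negative signs in the RBMX cultures may thus follow from the choice and are no evidence.

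**Figure D2:**
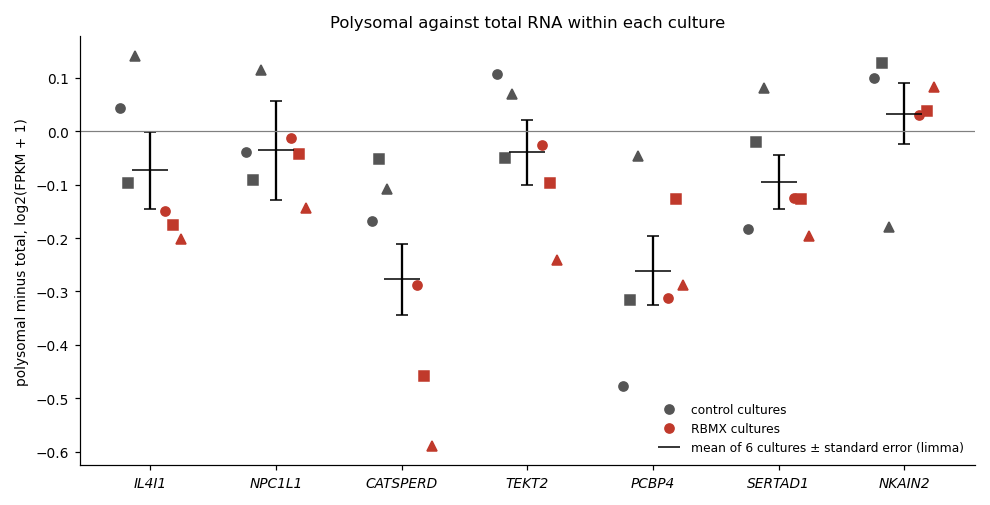
Polysomal minus total level of each gene, log2(FPKM + 1), with 1 point per culture (shape for the culture number, color for the vector) and, as a bar, the mean over the 6 cultures ± the limma standard error. All 6 points lie below 0 for CATSPERD and PCBP4, while the points of the other 5 genes lie on both sides of 0.

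The genes beside the 7 were examined as part of their surroundings. Of the nearest or overlapping protein-coding genes, 15 passed the filter and 0 passed the limma threshold in either fraction. Of the 15, 6 in total and 4 in polysomal RNA had an unadjusted limma p under 0.05. These are larger shares than the 18.8% and 11.7% of all genes tested, and the excess was not tested. The log2 differences of the 15 between RBMX and control total RNA ran from -0.27 for RNF217, beyond NKAIN2, to 0.52 for PRR22, beyond CATSPERD. ADPRHL2, which encodes an ADP-ribose hydrolase, starts 600 bases after TEKT2 on the same strand. It was 30.1 FPKM in control and 43.2 FPKM in RBMX total RNA (log2 difference 0.50 ± 0.098, adjusted p = 0.170), and 33.0 and 45.2 FPKM in polysomal RNA. LONP1, the mitochondrial Lon protease gene, lies 105 bases from CATSPERD on the opposite strand and had 37.6 FPKM in control and 42.7 FPKM in RBMX total RNA (0.23 ± 0.26, adjusted p = 0.655).

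Some neighbours overlap the genes, and the kit as named does not keep strand, so that reads of overlapping exons could be given to either. IL4I1 shares 336 exonic bases with NUP62, a nuclear pore gene on the same strand, and 75 with ATF5 on the opposite strand. NUP62 was far more abundant than IL4I1, at 63.2 FPKM in control and 66.9 FPKM in RBMX total RNA (0.10 ± 0.17, adjusted p = 0.766), and ATF5 was 44.7 and 50.2 FPKM (0.16 ± 0.063, adjusted p = 0.250). The level of IL4I1 is uncertain to that extent. PCBP4 shares 52 exonic bases with ABHD14B on the same strand, which was 7.01 FPKM in control and 6.05 FPKM in RBMX total RNA, and 51 with GPR62, which was under the filter. SERTAD3, a paralog of SERTAD1 that lies 14819 bases away, was 36.6 FPKM in control and 40.4 FPKM in RBMX total RNA (0.14 ± 0.077, adjusted p = 0.372). SERTAD1 and its paralog thus had unlike differences, 0.54 and 0.14, in total RNA and 0.43 and -0.03 in polysomal RNA.

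**Figure D3:**
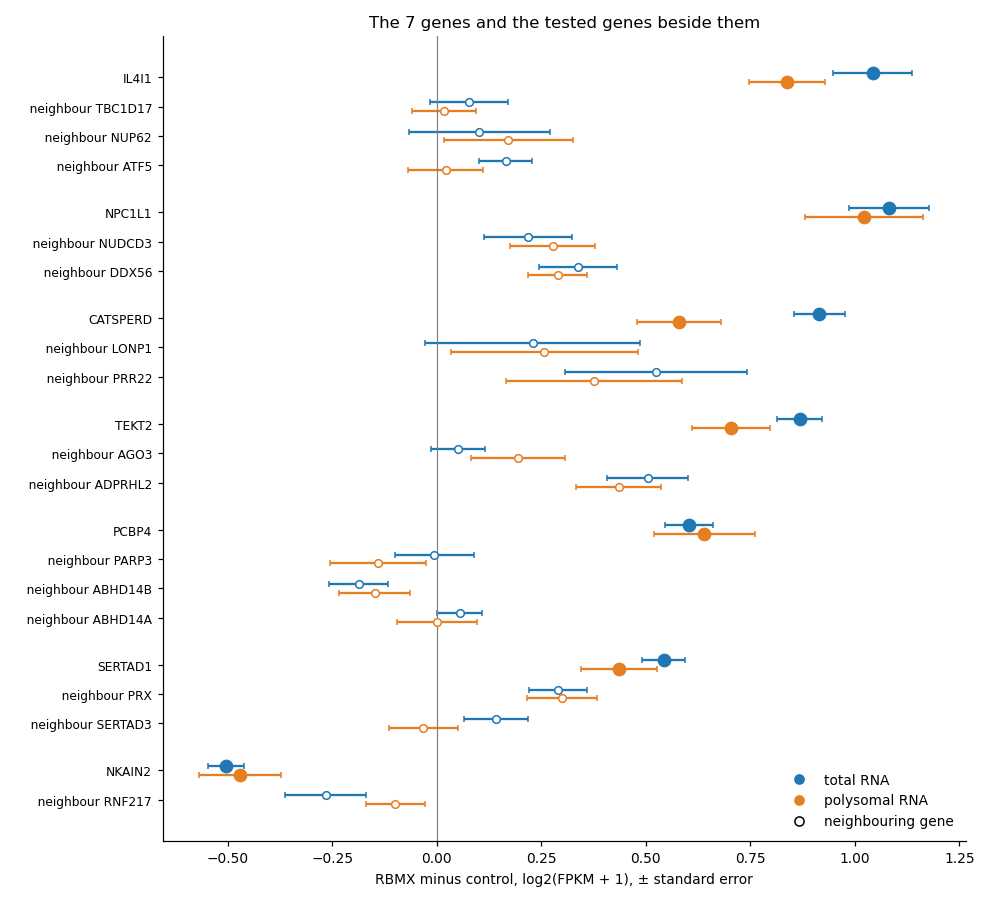
RBMX minus control difference, log2(FPKM + 1) ± limma standard error, in total and polysomal RNA, for the 7 genes (filled) and for the protein-coding genes next to or overlapping them that passed the filter (open). The 7 genes lie farther from 0 than their tested neighbours in total RNA, with ADPRHL2 beside TEKT2 and PRR22 beside CATSPERD having the largest neighbour differences.

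Pathway partners were taken from 8 lists of 121 genes, of which 77 passed the filter. None passed the limma threshold in total or in polysomal RNA, where 19 and 8 of the 77 had an unadjusted p under 0.05, against 18.8% and 11.7% of all genes tested. The RBMX and control libraries did not overlap for 13 of the 77 with higher and 11 with lower values in total RNA, and for 10 and 8 in polysomal RNA. Of all genes tested, 11.9% and 15.4% did so in total RNA and 10.0% and 12.5% in polysomal RNA. The same shares apply to the counts given for the tested genes of single lists, and not to genes under the filter. The median log2 difference of all tested genes was 0 in both fractions. Since the 7 genes were chosen for their difference and the list genes were not, the distance between them is a description.

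Amino acid oxidases and genes of tryptophan breakdown, 7 of 14 tested, had a median difference of 0.071 in total RNA. AHRR, the repressor of the aryl hydrocarbon receptor, was 3.34 FPKM in control and 4.14 FPKM in RBMX cells, and CYP1B1, a cytochrome P450 induced by that receptor, was 9.33 and 7.76 FPKM, the only ones of the list without overlap in total RNA. TIPARP, the most abundant of the list, was 11.7 and 13.2 FPKM. Of the sterol genes around NPC1L1, 13 of 18 were tested, and 3 had higher values without overlap in both fractions. They included LIMA1, a partner of NPC1L1 in enterocytes, at 21.8 FPKM in control and 31.2 FPKM in RBMX total RNA (0.49 ± 0.14, adjusted p = 0.189). NPC1, the lysosomal paralog of NPC1L1, was 10.8 FPKM in control and 11.3 FPKM in RBMX total RNA. FLOT1, of the membrane raft protein flotillin, was 118 and 116 FPKM.

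Of the CatSper complex, 2 of 13 genes were tested, CATSPER2 at 0.900 FPKM in control and 0.929 FPKM in RBMX total RNA and CATSPER3 at 0.725 and 0.771 FPKM. Their log2 differences were 0.054 and 0.041. Of the genes of the complex under the filter, CATSPER1, another pore subunit, was 0.0761 FPKM in control and 0.132 FPKM in RBMX total RNA without overlap, and CATSPERG, an auxiliary subunit, was 0.351 and 0.575 FPKM with overlap. Of the tektins and axonemal proteins, 10 of 21 were tested, with a median of -0.024 in total and -0.12 in polysomal RNA, and 3 had lower values without overlap in total RNA and 4 in polysomal RNA. SPAG16, the most abundant, was 39.7 FPKM in control and 32.4 FPKM in RBMX total RNA (-0.28 ± 0.097, adjusted p = 0.229). The paralogs TEKT1, TEKT3, TEKT4 and TEKT5 were under the filter. TEKT3 was 0.273 FPKM in control and 0.788 FPKM in RBMX total RNA without overlap, and overlapped in polysomal RNA. Of all 21 genes, 2 had higher values without overlap in total RNA, TEKT3 and DNAI2, both under the filter, and 0 in polysomal RNA.

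Of the KH-domain proteins related to PCBP4, PCBP1 was 195 FPKM in control and 201 FPKM in RBMX total RNA, PCBP2 was 160 and 165 FPKM, and PCBP3 was under the filter. All 16 p53 target genes were tested, with a median difference of 0.13 in total and 0.082 in polysomal RNA. In total RNA 6 had higher and 2 lower values without overlap. CDKN1A, the p21 cell cycle inhibitor, was 115 FPKM in control and 134 FPKM in RBMX cells (0.22 ± 0.054, adjusted p = 0.176), and BAX, a pore-forming death protein, was 218 and 228 FPKM. Among the 17 SERTA-domain proteins and G1/S partners, all tested, the median was -0.026 in total RNA. SERTAD2 was 17.3 FPKM in control and 13.9 FPKM in RBMX cells, SERTAD4 was 16.5 and 16.4 FPKM, and CDK4, the kinase that SERTAD1 binds, was 136 and 144 FPKM. The NKAIN paralog that could be tested, NKAIN1, was 2.83 and 3.03 FPKM (0.074 ± 0.055, adjusted p = 0.506), against the lower values of NKAIN2. The 8 tested NKAIN and Na,K-ATPase genes had a median of 0.072 in total RNA.

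**Figure D4:**
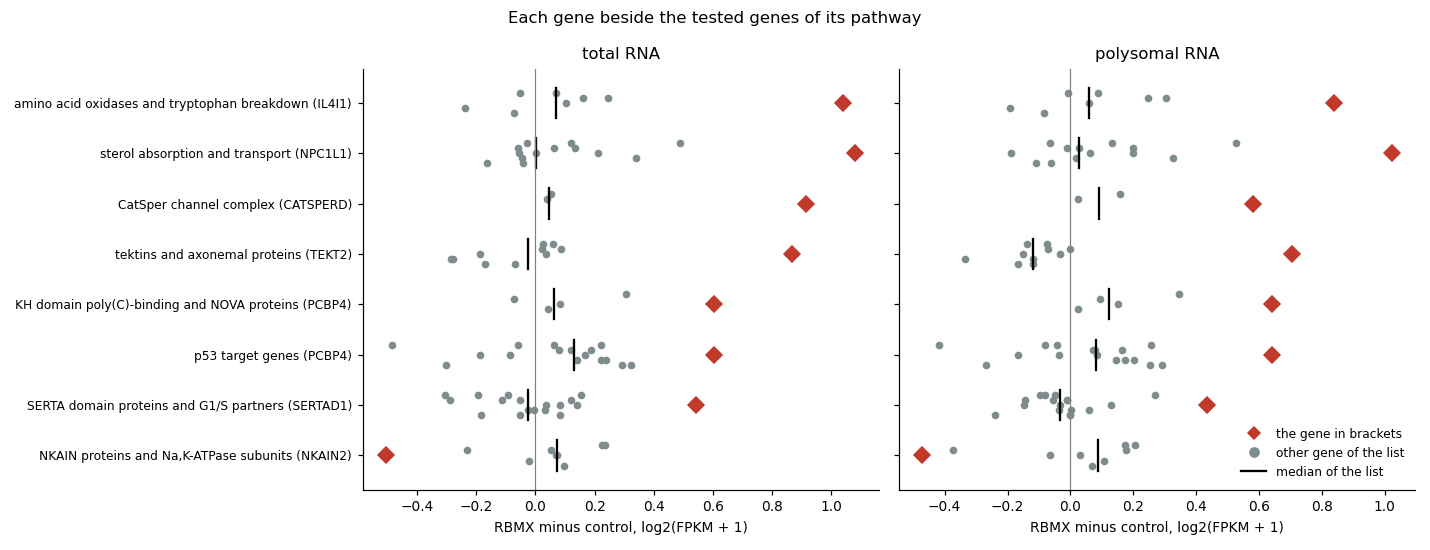
RBMX minus control difference, log2(FPKM + 1), in total (left) and polysomal RNA (right), for the tested genes of 8 lists (gray points), the median of each list (black line) and the gene of the 7 that the list was built around (red diamond). In total RNA the 7 genes lie outside the range of their lists, whose medians lie between -0.026 and 0.13.

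Markers of the tissues in which these genes are best known were set beside them. Summed levels of 9 B lymphocyte and myeloid markers were 7.08 to 7.83 FPKM in control and 10.4 to 29.2 FPKM in RBMX total RNA, and 7.26 to 7.37 and 10.2 to 35.2 FPKM in polysomal RNA. CD68, a lysosomal membrane protein, made up most of this, at 5.20, 5.07 and 5.12 FPKM in the control and 25.6, 23.4 and 7.58 FPKM in the RBMX total libraries. Of the 9 markers, 4 had higher RBMX values without overlap in total RNA and 4 in polysomal RNA. Of the genes tested 11.9% and 10.0% did so, but most of the 9 were under the filter, where no share was counted. Besides CD68 the markers without overlap in total RNA were CD79A, part of the B cell receptor, at 0.525 FPKM in control and 0.944 FPKM in RBMX cells, ITGAM, a myeloid integrin, at 0.108 and 0.418 FPKM, and CSF1R, a macrophage growth factor receptor, at 0.0121 and 0.0843 FPKM. PTPRC and MS4A1 had group means of at most 0.0134 FPKM, and 0 of the 9 markers passed the limma threshold, although only 3 of the 9 were above the filter. The sums of these markers thus differed in the same direction as IL4I1, though not every marker did. LYZ was 0.127 FPKM in control and 0.113 FPKM in RBMX polysomal RNA.

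The 8 enterocyte and hepatocyte markers were low in all libraries, all under the filter, but their sum was higher with RBMX. Their sum was 0.0837 to 0.206 FPKM in control and 0.609 to 0.732 FPKM in RBMX total RNA, and 0.0296 to 0.203 FPKM and 0.311 to 0.486 FPKM in polysomal RNA, without overlap in either. VIL1, the villin of the brush border, was 0.0183 FPKM in control and 0.314 FPKM in RBMX total RNA. Of the 8, 3 had higher RBMX values without overlap in total RNA and 2 in polysomal RNA, against 11.9% and 10.0% of all genes tested. FABP1 went the other way, at 0.0151 FPKM in control and 0 FPKM in RBMX total RNA, and APOB and SI were at 0 FPKM in both. The sums of the 8 differed in the same direction as NPC1L1. The 9 male germ cell markers, set beside CATSPERD and TEKT2, summed to 0.546 to 0.892 FPKM in control and 0.689 to 0.850 FPKM in RBMX total RNA, with overlap. Neuron markers summed to 13.7 to 19.2 FPKM in control and 16.4 to 17.9 FPKM in RBMX total RNA, with overlap. The part of other cell types in the values of the 7 genes was not tested.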

How the data were processed

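Total and polysomal RNA of 6 HEK293 cultures was sequenced. The deposited table holds FPKM values per gene symbol and library, which the authors computed before deposit, and the submitters' processing notes name CASAVA 1.8, TopHat2 2.0.13, Cufflinks 2.2.1, Cuffnorm and the build hg19. The annotation used is not given in the sources used here. Values are normalized for length and library, so depth in fragments is unknown and no count model was used. All 12 columns were matched to samples by name, with 0 left over. Library sums of FPKM ran from 817528 to 1903317.

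The 7 genes and all gene lists were chosen with earlier results of these data known. Genes with a mean of at least 0.5 FPKM over the 12 libraries (14676) were tested on log2(FPKM + 1) with limma 3.58.1 in R 4.3.3 (lmFit and eBayes with trend, two-sided, Benjamini-Hochberg over all genes tested, threshold 0.05), after a test on simulated data. RBMX was compared with control within each fraction (6 libraries). Polysomal was compared with total RNA over 4 group means. Named genes were the 7, RBMX, nearest or overlapping genes, the 3 most correlated genes of each, and of each list the genes past the threshold, paralogs and up to 2 of the highest mean FPKM. LIMA1, AHRR, CATSPER1, CATSPERG, DNAI2 and the lymphocyte, myeloid, enterocyte and hepatocyte markers given singly, such as CD68 and VIL1, fall outside this rule. They were chosen after their values were seen. Some genes that the rule names are not reported here. Total and polysomal RNA of a culture come from 1 gradient and pair by culture. Their deviations from the group means correlated at 0.62, 0.72 and 0.85 in control and 0.23, 0.021 and 0.68 in RBMX cultures. Coordinates are from GENCODE release 29 and promoters from RefSeq. Alternatives were other pseudocounts, filters, scalings, blocks and leaving out libraries.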

Additional observations from a re-analysis of the deposited data

How the results depend on the processing

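The RBMX minus control difference of the 7 genes kept its direction in all 154 values, counted for each gene, fraction and setting. This contrast chose the genes, so the kept direction is no evidence. The replicate block and the fit of all 12 libraries leave the difference itself unchanged. Of these values, 15 moved by more than the SD within groups. In the comparison of polysomal with total RNA, 4 values changed sign, none of them called: NPC1L1 was 0.014 under quantile normalization, and with single libraries left out NPC1L1 ranged from -0.087 to 0.034, TEKT2 from -0.072 to 0.0063 and NKAIN2 from -0.0017 to 0.083. The calls of CATSPERD and PCBP4 were lost under quantile normalization (adjusted p = 0.192 and 0.0695), that of CATSPERD with 0.1 FPKM added (0.0560), and that of PCBP4 with a minimum of 0.1 FPKM (0.0505) or no filter (0.0653).

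Of the counts over all genes, the 24 in total RNA became 62 with a minimum of 0.1 FPKM, 77 with no filter, 60 with all 12 libraries in one fit, 13 with the replicate number as a block, and 19 to 178 with single libraries left out (40 without control replicate 3, 178 without RBMX replicate 3). The 7 in polysomal RNA became 14, 31, 22 and 3 under the same settings and 9 to 126 with libraries left out (14 without control replicate 1, 11 without control replicate 3 or RBMX replicate 2, 126 without RBMX replicate 3). Replicate numbers did not pair control with RBMX cultures (correlations from -0.16 to 0.35). The 970 genes between fractions became 2584 with the culture as replicate block and 112 to 2060 with libraries left out, lowest without RBMX total replicate 2 and highest without control polysomal replicate 3. Under quantile normalization 586 were higher and 517 lower, against 219 and 751. The cause of these moves was not tested. Scaling moved the median of all genes by at most 0.040 on the log2 scale.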
